A study of Mus musculus with 12 samples.

Results

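Voltage-gated calcium channel subunits were followed through 10 genes in the epileptic mouse hippocampus: the pore-forming subunits Cacna1a, Cacna1b, Cacna1c, Cacna1d, Cacna1e, Cacna1g and Cacna1h, and the auxiliary subunits Cacna2d1, Cacnb4 and Cacng8. All probes that the array files name after these 10 genes were taken, which gave 27 probes. The scanner software marks a signal as well above background or not, and a probe was kept where all 3 arrays of any 1 group carried that mark. Of the 27 probes 21 passed, with at least 1 for every gene, so the 10 genes are 10 of the 18169 genes with a kept probe, and the 21 probes are 21 of 27671 kept among 41174 on the array. Of the 21, 16 were well above background on all 12 arrays. The 6 probes not kept were 2 of Cacna1d (first bases 652 and 715 of the transcript), 2 of Cacna1e (bases 3895 and 8946), 1 of Cacna1h (base 1379) and 1 of Cacna2d1 (base 1795). Of these 6, the Cacna1d probe at base 652 was well above background on 2 arrays, both of LPS at 24 h, and the other 5 on 0.

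Hippocampal RNA came from 12 male C57BL/6N mice, 12 weeks old, in 4 groups of 3. They were given LPS, the lipopolysaccharide of Gram-negative bacteria (from Salmonella enterica, serotype abortus equi, at 100 µg/kg into the peritoneum), with the hippocampus taken after 4 h, or saline with 4 h, or LPS with 24 h, or saline with 24 h. Every mouse, in the saline groups too, had kainate, a glutamate receptor agonist (50 nl at 20 mM), put into the left dorsal hippocampus 3 weeks earlier and had recurrent seizures. The side that was dissected is not given in the labels, and mice without kainate are not part of the groups analysed here. That the 3 arrays of a group are 3 animals rests on the series' design text.

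Voltage-gated calcium channels open when the membrane is depolarised and let calcium into the cell, where it drives transmitter release, firing and gene expression. The pore is formed by an alpha subunit that also sets the channel type: P/Q-type (Cacna1a), N-type (Cacna1b) and R-type (Cacna1e) channels at synapses and dendrites, L-type channels (Cacna1c, Cacna1d) on cell bodies and dendrites, and T-type channels (Cacna1g, Cacna1h), which open near the resting potential and underlie burst firing. Auxiliary subunits carry the pore to the membrane and tune its gating. In the hippocampus these channels shape seizure activity, and the Cacna2d1 product is the binding site of gabapentin.

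The array carries probes of 60 bases. The 8 below were chosen by hand as examples. They are the probe with the widest range (Cacng8) and probes of genes that were higher 4 h after LPS (Cacna2d1, Cacna1g, Cacna1h). The Cacna1a pair, of which only 1 was called, and Cacnb4 probes that moved against the rest are also shown. Other probes that carry results, such as Cacna1c at base 7439 and Cacnb4 at base 7838, are not shown. The letters are those of the array files, 5′ to 3′, all in lower case since no part is singled out. Positions are on mm9.
Cacng8, base 736 of the transcript, chr7:3415329-3415388, plus strand: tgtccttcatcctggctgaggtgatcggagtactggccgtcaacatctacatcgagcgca
Cacna2d1, base 2885, chr5:15864758-15864817, plus strand: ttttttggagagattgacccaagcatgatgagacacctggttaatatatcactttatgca
Cacna1g, base 6951, chr11:94270917-94270976, minus strand: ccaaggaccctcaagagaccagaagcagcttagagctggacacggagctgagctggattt
Cacna1h, base 6053, chr17:25514210-25514269, minus strand: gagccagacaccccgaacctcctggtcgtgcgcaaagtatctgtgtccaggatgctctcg
Cacna1a, base 6659, chr8:87160594-87162566, plus strand: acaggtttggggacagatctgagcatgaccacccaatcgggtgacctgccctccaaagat
Cacna1a, base 5772, chr8:87141701-87141760, plus strand: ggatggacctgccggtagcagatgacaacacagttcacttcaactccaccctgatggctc
Cacnb4, base 1039, chr2:52311138-52311197, minus strand: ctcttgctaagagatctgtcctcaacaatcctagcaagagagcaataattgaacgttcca
Cacnb4, base 1542, chr2:52290219-52292414, minus strand: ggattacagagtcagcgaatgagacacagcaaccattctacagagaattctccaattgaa
The Cacna1a probe at base 6659 and the Cacnb4 probe at base 1542 cover 1973 and 2196 bases of genome, so their 60 bases cross an intron. The other 6 lie in 1 block of 60 bases. Exon numbers and UTR bounds were not looked up, since no annotation of mm9 was used here. The other kept probes that are described below with their values lie at chr6:118543294-118543353 (Cacna1c, base 7439), chr6:118542993-118543052 (Cacna1c, base 7740), chr14:30854355-30854414 (Cacna1d, base 7774), chr11:94269863-94269922 (Cacna1g, base 8005), chr17:25511747-25511806 (Cacna1h, base 7653), chr5:15876550-15876609 (Cacna2d1, base 3635), chr2:52289912-52289971 (Cacnb4, base 1849) and chr2:52283923-52283982 (Cacnb4, base 7838). Those of Cacna1b lie at chr2:24461997-24462055 (base 7021) and chr2:24461423-24461482 (base 7667), that of Cacna1d at base 6283 at chr14:30855472-30855531, that of Cacna1e at base 12000 at chr1:156240286-156240345 and that of Cacna1h at base 1107, which crosses an intron, at chr17:25530958-25532310.

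Values are log2 of the processed intensity minus the 75th percentile of the same array, so 0 is the level of a probe brighter than 75% of the probes on that array, and levels of different probes are not comparable. The 75th percentile itself was 663 ± 33.6 intensity units in LPS 4 h, 365 ± 12.3 in saline 4 h, 820 ± 116 in LPS 24 h and 769 ± 60.7 in saline 24 h (SD, n = 3 each). The mean share of probes well above background was 59.6% in LPS 4 h, 54.6% in saline 4 h, 69.7% in LPS 24 h and 65.6% in saline 24 h. The saline 4 h arrays were thus the dimmest, and the part of this in the results below was not tested. Over the 21 probes, arrays of the same group had a median SD of 0.05 to 0.12 log2 units. All 11 hippocampal marker genes (among them Prox1, C1ql2, Wfs1 and Neurod6) were well above background on all 12 arrays, and so were all 8 thalamic markers.

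The first comparison asks how the channel genes differ 4 h after LPS. Most were higher in LPS than in saline. Cacna1c, Cacna1g, Cacna2d1 and Cacng8 were higher on every kept probe, Cacna1h on 2 of 3, and Cacnb4 was lower on 3 of its 4 probes. Of the 21 probes, 13 (of 9 genes) were called higher by limma at a Benjamini-Hochberg adjusted p under 0.05 and 3 (all Cacnb4) lower, where 31.6% of all probes tested were called higher and 39.4% lower. The median difference was 0.64 over the 21 probes and -0.08 over all probes. Among the 16 probes measured on all 12 arrays, 9 were higher and 3 lower, where such probes were called higher in 31.5% and lower in 47.4% of cases. The LPS arrays lay above all saline arrays for 13 probes and below all of them for 3, where this held for 32.9% and 41.6% of all probes, 74.6% together.

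**Figure D1:**
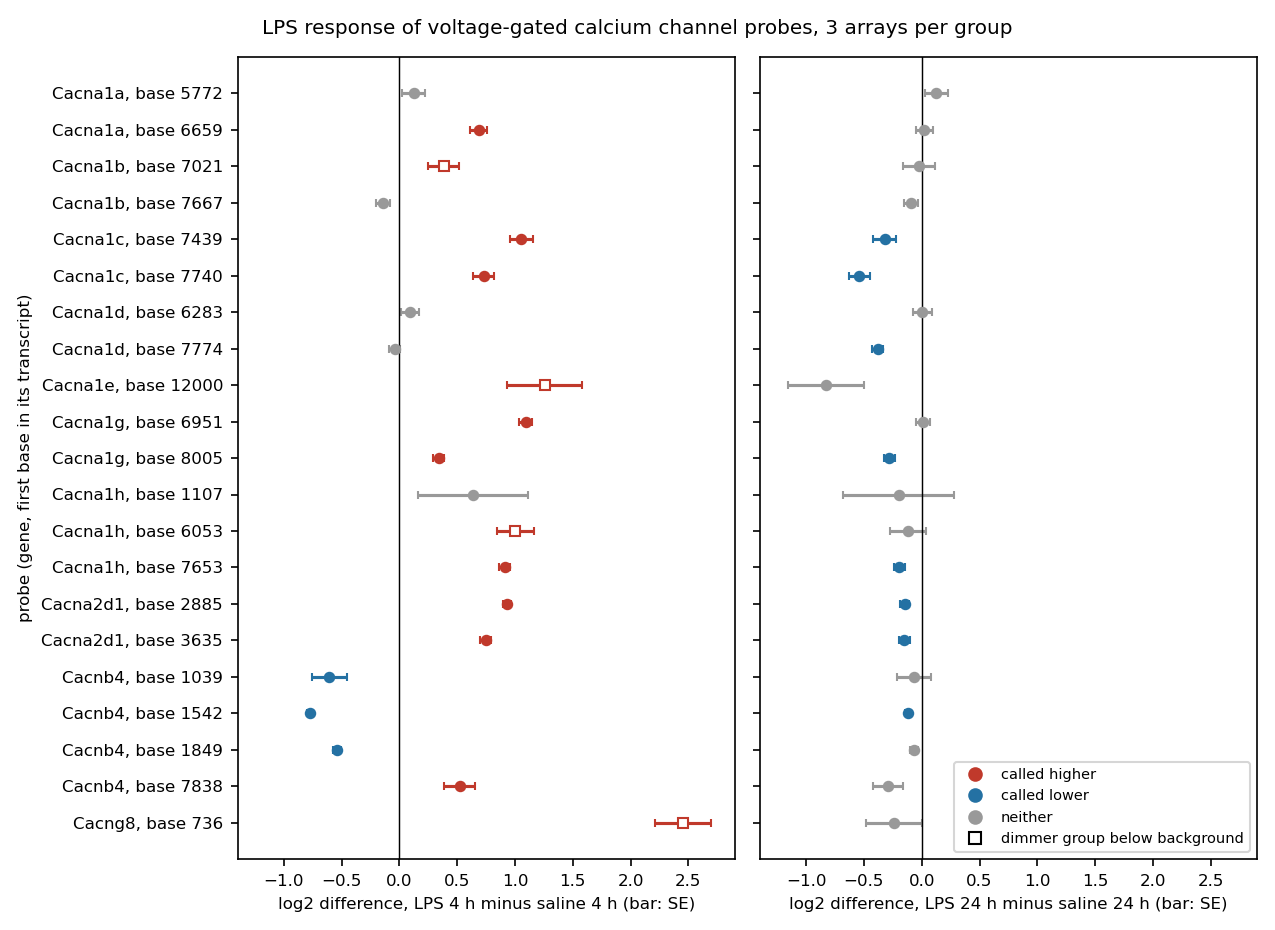
Log2 difference with its SE (x axis) of each of the 21 kept probes (rows), LPS 4 h minus saline 4 h on the left and LPS 24 h minus saline 24 h on the right, 3 arrays per group. Most points lie to the right of 0 at 4 h, with Cacng8 at 2.45 and 3 Cacnb4 probes below 0, and at 24 h the 8 called probes all lie to the left of 0.

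Among the pore subunits of synaptic channels, Cacna1a was split between its probes. At base 6659 it stood at -2.79, -2.51 and -2.63 in LPS 4 h, against -3.30, -3.25 and -3.43 in saline 4 h. All 3 LPS arrays were above the saline arrays, and the difference was 0.69 ± 0.07 (SE; adjusted p = 1.68e-05). At base 5772 the groups overlapped, with a mean of -3.96 ± 0.15 in LPS 4 h and -4.08 ± 0.19 in saline 4 h (SD, n = 3 each), and the difference of 0.12 ± 0.10 was not called (adjusted p = 0.284; without saline 4 h replicate 1 it was 0.23, adjusted p = 0.0326). Mutations of Cacna1a cause absence seizures in tottering mice.

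Cacna1b, the pore of the N-type channel that feeds transmitter release, was not called at 4 h on the probe that was measured on all arrays. This brighter probe at base 7667 was at -2.14, -2.32 and -2.22 in LPS 4 h, against -2.11, -1.96 and -2.19 in saline 4 h. These groups overlapped, with a difference of -0.14 ± 0.06 (adjusted p = 0.0639). The LPS array was the lower one on each of the 3 slides, and the probe was called lower with the slide as a block (adjusted p = 0.00664), with quantile normalization (-0.26, 0.00316), with median scaling (-0.31, 0.00173), in the deposited matrix (-0.17, 0.0184) and among probes measured on all arrays (0.0459). It was also called lower without LPS 4 h replicate 1 (-0.19, 0.0315) or without saline 4 h replicate 3 (-0.20, 0.0187). The Cacna1b probe at base 7021 was called higher by the fit (0.38 ± 0.14, adjusted p = 0.0305), but it was well above background on 1 LPS array and 0 saline arrays, so no fold is given, and the call was lost without LPS 4 h replicate 2 (adjusted p = 0.0863), LPS 4 h replicate 3 (0.103) or saline 4 h replicate 1 (0.109), and also with the slide as a block (0.0752), in the fit on the 4 h arrays alone (0.077), with median scaling (0.157) and in the deposited matrix (0.222). Cacna1e, the R-type pore, was in the same position at base 12000: it was well above background on 1 LPS array and 0 saline arrays, at means of -5.26 ± 0.66 in LPS 4 h and -6.52 ± 0.05 in saline 4 h, and the fitted difference of 1.26 ± 0.33 (adjusted p = 0.00584) gives no fold.

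Of the L-type pores, Cacna1c was called at 4 h and Cacna1d was not. Cacna1c, the main L-type subunit of the brain, which couples calcium entry to transcription, was at -2.03, -2.11 and -1.97 in LPS 4 h at base 7439, against -2.92, -3.36 and -3.01 in saline 4 h. Every LPS array was above every saline array, by 1.06 ± 0.10 on average (adjusted p = 5.78e-06). Its other probe, at base 7740, rose as well, by 0.73 ± 0.09 (adjusted p = 4.87e-05). Cacna1d, whose channels open at lower voltage and act as pacemakers, was not called on either kept probe. At base 7774 it stood at -1.55, -1.65 and -1.53 in LPS 4 h, against -1.50, -1.51 and -1.60 in saline 4 h, a difference of -0.04 ± 0.05 (adjusted p = 0.435). This probe was called lower with quantile normalization (-0.13, adjusted p = 0.0257) and with median scaling (-0.21, adjusted p = 0.00814). At base 6283 the difference was 0.09 ± 0.08 (adjusted p = 0.335), and the groups overlapped on both probes.

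Both T-type pores were higher. Cacna1g, best known for burst firing of thalamic relay cells, was at -2.11, -1.96 and -2.07 in LPS 4 h at base 6951, against -3.03, -3.24 and -3.16 in saline 4 h. The LPS arrays were all higher, by 1.09 ± 0.06 (adjusted p = 1.02e-07). The brighter Cacna1g probe, at base 8005, gave a smaller difference of 0.34 ± 0.05 (adjusted p = 8.16e-05) at means of 0.81 ± 0.06 in LPS 4 h and 0.47 ± 0.08 in saline 4 h. Summed over the 8 thalamic marker genes, the linear level relative to the 75th percentile was 17.9 to 18.04 in LPS 4 h and 24.4 to 25.1 in saline 4 h, so it differed in the other direction. Its part in the Cacna1g values was not tested.

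Cacna1h, the T-type pore found in dentate granule cells and pyramidal neurons and linked to epilepsy, was at 0.28, 0.35 and 0.27 in LPS 4 h at base 7653, against -0.64, -0.64 and -0.55 in saline 4 h. The arrays did not overlap, and the difference was 0.91 ± 0.05 (adjusted p = 1.25e-07). At base 6053 Cacna1h was not well above background on any saline 4 h array, and it was at least 1.61-fold higher in LPS 4 h (adjusted p = 2.48e-04; measured means -4.01 in LPS 4 h and -5.01 in saline 4 h). For a fold given as "at least", each array of the dim group entered with the faintest signal that still carried the mark there, or with the probe's own signal if that was brighter. The probe at base 1107 was well above background on 3 LPS arrays and 1 saline array, overlapped between groups and was not called (0.64 ± 0.48, adjusted p = 0.259; without saline 4 h replicate 3 it was 1.17, adjusted p = 0.0252).

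Of the auxiliary subunits, Cacna2d1, which carries channels to presynaptic terminals, rose on both kept probes. At base 2885 it was at -0.95, -0.93 and -0.94 in LPS 4 h, against -1.91, -1.79 and -1.90 in saline 4 h. The LPS arrays lay close together and above every saline array, with a difference of 0.93 ± 0.04 (adjusted p = 1.22e-08). At base 3635 the difference was 0.75 ± 0.04 (adjusted p = 2.13e-07).

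Cacng8 encodes a transmembrane protein of the calcium channel gamma family that in the hippocampus is mainly an auxiliary subunit of AMPA-type glutamate receptors. Its probe at base 736 was at -3.98, -3.65 and -3.69 in LPS 4 h, against -5.84, -5.92 and -6.93 in saline 4 h, where no array was well above background. LPS 4 h was therefore at least 1.95-fold higher in this processing (adjusted p = 7.21e-06). In the deposited matrix the log2 difference was 0.52 (adjusted p = 1.5e-06), which is smaller than that bound. The fitted log2 difference of 2.45 ± 0.24 rests on saline signals that were not measured above background and is no measured fold.

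**Figure D2:**
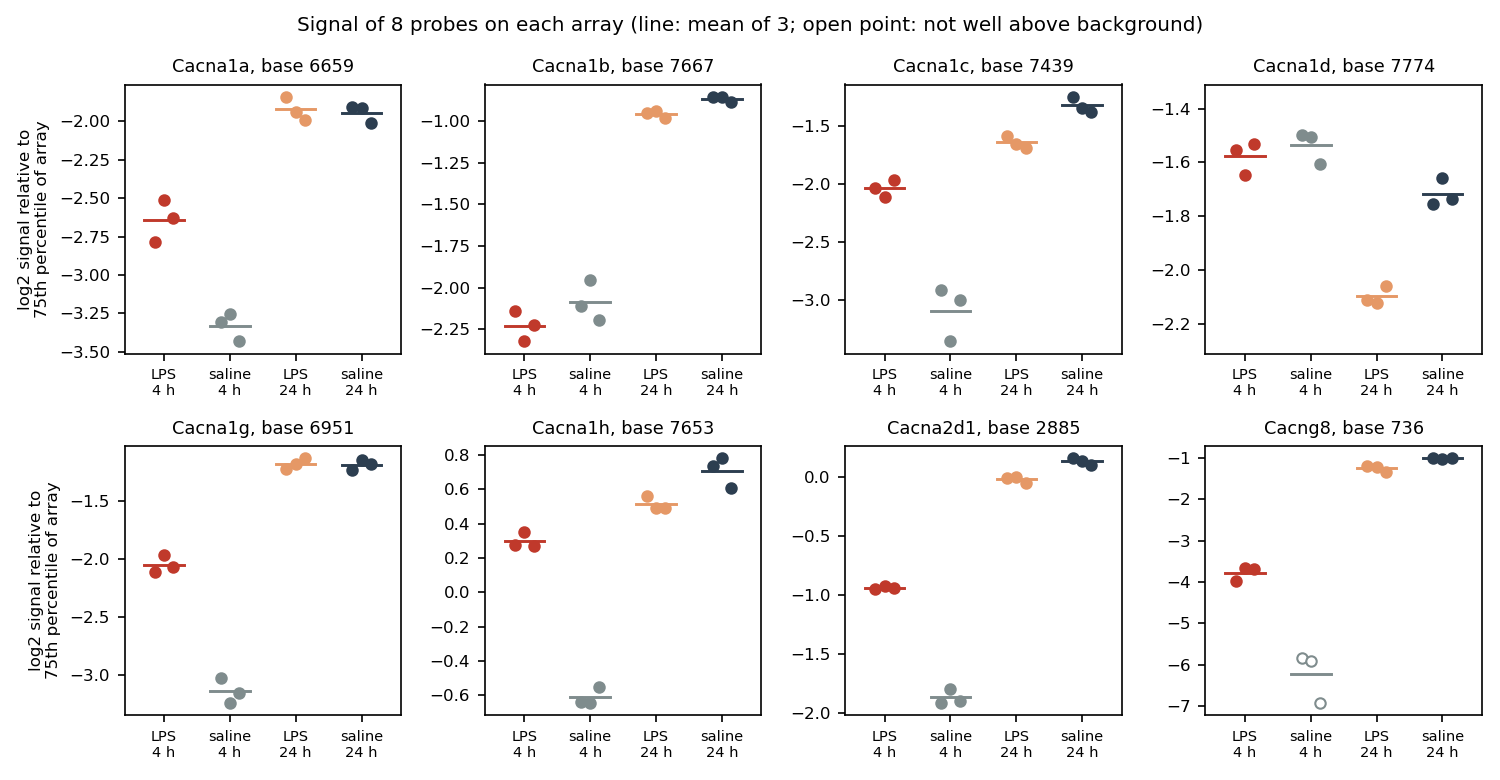
Log2 signal relative to the array's 75th percentile (y axis, a separate scale per panel) of 8 probes on each of the 12 arrays, by group from left to right: LPS 4 h, saline 4 h, LPS 24 h, saline 24 h; points are arrays, lines are means of 3, and open points were not well above background. Saline 4 h is the lowest group in 6 panels, while Cacna1d base 7774 is lowest in LPS 24 h and Cacna1b base 7667 in LPS 4 h.

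Cacnb4, the beta subunit whose loss causes the lethargic mouse with absence seizures, went in opposite directions on its probes. At base 1542 it was at 0.33, 0.34 and 0.30 in LPS 4 h, against 1.07, 1.08 and 1.14 in saline 4 h, and fell by 0.78 (SE 0.03; adjusted p = 6.57e-09). At base 1849 it was at 0.22, 0.18 and 0.16 in LPS 4 h, against 0.74, 0.75 and 0.70 in saline 4 h, and fell by 0.54 (SE 0.03; adjusted p = 3.19e-07). On both probes the LPS arrays were all below the saline arrays and close to each other.

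At base 1039 Cacnb4 was at -1.74, -2.32 and -2.37 in LPS 4 h, against -1.69, -1.46 and -1.47 in saline 4 h. LPS replicate 1 lay near the saline arrays and the other two well below them, and the probe fell by 0.61 (SE 0.15; adjusted p = 0.00431). At base 7838, far nearer the end of the transcript, Cacnb4 was at 1.19, 1.19 and 1.39 in LPS 4 h, against 0.91, 0.65 and 0.64 in saline 4 h, and rose by 0.52 ± 0.13 (adjusted p = 0.00522). All 3 LPS arrays were above the saline arrays there. The 4 differences thus spanned 1.30 log2 units. Calls in both directions for 1 gene were also made at 4 h for 1162 of the 6775 genes with several kept probes (17.2%).

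**Figure D3:**
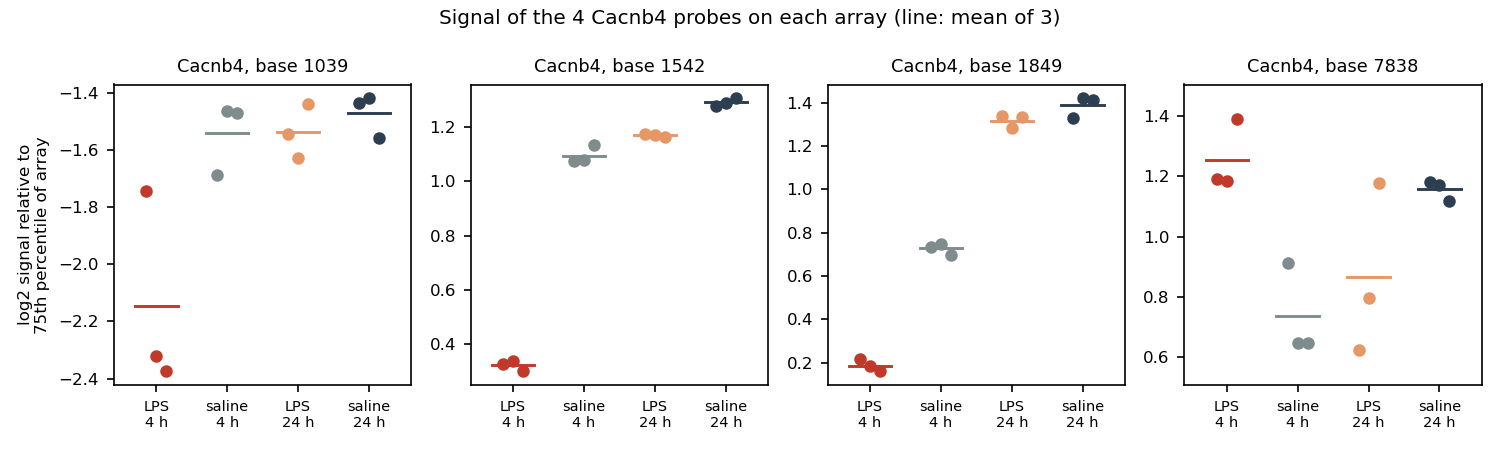
Log2 signal relative to the array's 75th percentile (y axis, a separate scale per panel) of the 4 Cacnb4 probes on each array, by group from left to right: LPS 4 h, saline 4 h, LPS 24 h, saline 24 h, with lines at the means of 3. LPS 4 h is the lowest group for the probes at bases 1039, 1542 and 1849 and the highest for the probe at base 7838.

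The calls at 4 h had the same sign on all 3 slides, each of which held 1 LPS and 1 saline array, for 16 of 16 called probes. This had to follow, since the LPS and saline arrays did not overlap for any called probe, so it adds no support. Scaling each array to its median in place of its 75th percentile gave 12 probes higher and 5 lower (6601 and 13550 of all 27671). Normexp background correction gave 7 higher and 3 lower (4535 and 7448 of all). Under normexp the Cacng8 value was 0.25 (adjusted p = 0.215) and the Cacna1h value at base 6053 was 0.08 (adjusted p = 0.779), and Cacna1a at base 6659, Cacna1c at base 7740 and Cacna1e also lost their calls, with values of 0.23, 0.12 and 0.02 (adjusted p = 0.0887, 0.52 and 0.961), while Cacna1b at base 7021 was -0.10 (adjusted p = 0.706).

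The second comparison asks the same at 24 h. By limma, 0 probes were called higher (20.8% of all probes tested) and 8, of 6 genes, were called lower (20.9% of all). At an unadjusted p under 0.05 the count of higher probes was also 0. The called falls were small, at most 0.54 log2 units, and involved Cacna1c, Cacna1d, Cacna1g, Cacna1h, Cacna2d1 and Cacnb4. The median difference was -0.15 over the 21 probes and 0.00 over all probes. LPS arrays were all below the saline arrays for 11 probes and all above them for 1 (Cacna1a, base 5772), where this held for 26.1% and 27.6% of all probes, 53.7% together. The 11 include Cacna1e, which passed the filter only through saline 24 h, so the filter favours its place.

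Cacna1c had the largest called difference. At base 7740 it was at -3.53, -3.49 and -3.50 in LPS 24 h, against -2.99, -2.89 and -3.03 in saline 24 h, and fell by 0.54 (SE 0.09; adjusted p = 0.00117). At base 7439 it was at -1.58, -1.66 and -1.69 in LPS 24 h, against -1.25, -1.34 and -1.38 in saline 24 h, and fell by 0.32 (SE 0.10; adjusted p = 0.028). No LPS array reached a saline array on either probe. At base 7439 the call was lost without saline replicate 1 (adjusted p = 0.0878), saline replicate 2 (0.0591), LPS replicate 2 (0.0716) or LPS replicate 3 (0.075) of 24 h.

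Cacna1d was lower at 24 h on its brighter probe. At base 7774 it was at -2.11, -2.12 and -2.06 in LPS 24 h, against -1.76, -1.66 and -1.74 in saline 24 h, and fell by 0.38 (SE 0.05; adjusted p = 1.23e-04). LPS 24 h was the lowest of the 4 groups there. The Cacna1d probe at base 6283 gave 0.00 ± 0.08 (adjusted p = 0.975), with overlapping groups.

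The T-type pores were split by probe. Cacna1g at base 8005 was at 0.27, 0.32 and 0.32 in LPS 24 h, against 0.55, 0.59 and 0.61 in saline 24 h, and fell by 0.28 (SE 0.05; adjusted p = 8.92e-04). At base 6951 its groups overlapped (0.01 ± 0.06, adjusted p = 0.923). The summed level of the 8 thalamic markers was 10.2 to 10.5 in LPS 24 h and 6.84 to 6.95 in saline 24 h, again in the other direction than the called Cacna1g probe.

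Cacna1h at base 7653 was at 0.56, 0.49 and 0.49 in LPS 24 h, against 0.74, 0.78 and 0.61 in saline 24 h, and fell by 0.19 (SE 0.05; adjusted p = 0.0122). Its highest LPS array stood just under its lowest saline array. The 2 dimmer Cacna1h probes were not called (-0.12 and -0.20, adjusted p = 0.593 and 0.776).

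Cacna2d1 fell by 0.15 on both probes (SE 0.04 each; adjusted p = 0.00874 at base 2885 and 0.0226 at base 3635). At base 2885 it was at -0.01, 0.00 and -0.05 in LPS 24 h, against 0.16, 0.13 and 0.10 in saline 24 h. The arrays of base 3635 did not overlap either, yet its call was lost in the fit on the 24 h arrays alone (adjusted p = 0.0641), in the deposited matrix (0.087), with the slide as a block (0.0612), without saline 24 h replicate 3 (0.0715) and without LPS 24 h replicate 3 (0.0614).

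Cacnb4 was called on 1 probe at 24 h. At base 1542 it was at 1.18, 1.17 and 1.17 in LPS 24 h, against 1.28, 1.29 and 1.31 in saline 24 h, and fell by 0.12 (SE 0.03; adjusted p = 0.0057). The call was lost in the deposited matrix (-0.11, adjusted p = 0.0894) and with normexp background correction (-0.11, adjusted p = 0.292). The other 3 Cacnb4 probes were at -0.07, -0.07 and -0.29 with adjusted p of 0.76, 0.132 and 0.107, so all 4 were below 0 at 24 h. The value was -0.10 at base 1849 without saline 24 h replicate 1 (adjusted p = 0.0466) and -0.45 at base 7838 without LPS 24 h replicate 3 (adjusted p = 0.00693).

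Cacng8 was at -1.20, -1.23 and -1.34 in LPS 24 h, against -1.01, -1.03 and -1.01 in saline 24 h. The LPS arrays were all lower, but the difference of -0.24 ± 0.24 was not called (adjusted p = 0.468). The SE is pooled over the 4 groups and holds the spread of the saline 4 h arrays, which were below background. In the fit on the 24 h arrays alone the adjusted p was 0.0133, in the deposited matrix it was 0.00616 at a value of -0.22, and without saline 4 h replicate 3 it was 0.0426.

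Cacna1a, Cacna1b and Cacna1e were not called at 24 h. The 2 probes of Cacna1a were at 0.02 and 0.13 (adjusted p = 0.856 and 0.351), and those of Cacna1b at -0.02 and -0.09 (adjusted p = 0.916 and 0.269). Cacna1e was well above background on 2 LPS arrays and 3 saline arrays and passed the filter only through saline 24 h. The filter thus favours a lower value in LPS 24 h, and no Cacna1e value at 24 h is support for a fall. It was at -0.83 ± 0.33 (adjusted p = 0.0675), or -1.07 without LPS 24 h replicate 3 (adjusted p = 0.0338) and -0.83 without LPS 4 h replicate 1 (adjusted p = 0.0171). Median scaling added calls of lower signal for Cacna1b at base 7667 (-0.19, adjusted p = 0.037), Cacna1e (-0.93, 0.0359) and Cacnb4 at bases 1849 (-0.17, 0.0182) and 7838 (-0.39, 0.0392), and quantile normalization for Cacna1e (-1.02, 0.0203). The sign was the same on all 3 slides for 8 of 8 called probes, which had to follow since their groups did not overlap. With normexp background correction 2 probes remained lower (1919 of all 27671), Cacna1d at base 7774 and Cacna1g at base 8005, and with a further threshold of 1.5-fold 0 did.

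The difference between the 2 responses was tested as an interaction. The response at 24 h was called lower than that at 4 h for 13 of the 21 probes (28.3% of all probes tested) and higher for 3 (37.6% of all). Among the 13 is Cacna1e, which passed the filter only through saline 24 h, so the filter favours its place. Cacna2d1 at base 2885 differed by -1.08 ± 0.05 (adjusted p = 7.71e-08), Cacna1h at base 7653 by -1.10 ± 0.07 (adjusted p = 6.01e-07) and Cacna1g at base 6951 by -1.08 ± 0.08 (adjusted p = 1.89e-06). Both Cacna1c probes differed, by -1.38 ± 0.14 at base 7439 and -1.27 ± 0.13 at base 7740 (adjusted p = 1.49e-05 and 1.46e-05). The 3 probes in the other direction were those of Cacnb4 at bases 1039, 1542 and 1849. Cacna1b had no call on either probe (-0.40 ± 0.19, adjusted p = 0.0937 at base 7021, and 0.05 ± 0.09, adjusted p = 0.642 at base 7667).

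Saline controls of 24 h and 4 h were set against each other to show how far the controls themselves differed. All arrays of a time shared a scan day that differed between times, so time and run cannot be told apart here. Saline 24 h was called higher than saline 4 h for 18 of the 21 probes (38% of all probes tested). It was called lower for 1, Cacna1d at base 7774 (41.5% of all). Cacna1h at base 1107 (0.80 ± 0.48) and Cacnb4 at base 1039 (0.07 ± 0.15) were not called. The 18 include Cacna1e, which passed the filter only through saline 24 h. They also include Cacna1b at base 7021, which passed only through the 24 h groups. The filter thus favours the place of both. The median difference was 1.22 over the 21 probes and -0.02 over all probes. Cacna2d1 was higher by 2.00 ± 0.04 at base 2885 and 1.78 ± 0.04 at base 3635 (adjusted p = 4.21e-11 and 2.3e-10), Cacna1g by 1.95 ± 0.06 at base 6951 (adjusted p = 7.02e-10) and Cacna1c by 1.77 ± 0.10 at base 7439 (adjusted p = 6.35e-08). Cacng8 was at least 13.2-fold higher in saline 24 h (adjusted p = 1.33e-08).

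Cacna1b also differed between the saline groups. At base 7667 it was at -0.86, -0.85 and -0.88 in saline 24 h, against -2.11, -1.96 and -2.19 in saline 4 h, a difference of 1.22 ± 0.06 (adjusted p = 2.77e-08). The groups were far apart. At base 7021 Cacna1b was at least 2.38-fold higher in saline 24 h (adjusted p = 3.74e-07). This probe passed the filter only through the 24 h groups, which favours this direction, so its value adds no support. Cacna1a at base 6659 was higher by 1.38 ± 0.07 (adjusted p = 4.63e-08) and Cacna1h at base 7653 by 1.32 ± 0.05 (adjusted p = 3.6e-09).

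With the saline arrays of the other time as controls, most calls turned round. Set against saline 24 h in place of saline 4 h, LPS 4 h was called lower for 15 of the 21 probes and higher for 2 (35.4% and 35.5% of all probes tested). Against saline 4 h in place of saline 24 h, LPS 24 h was called higher for 15 and lower for 2 (39.9% and 40% of all). Cacna2d1 at base 2885 was then at -1.07 ± 0.04 in LPS 4 h (adjusted p = 4.24e-09), and Cacnb4 at base 1542 stayed lower at -0.97 ± 0.03. The crossed comparisons share arrays with the main ones and join arrays of different runs. Cacna1b at base 7021 is in both counts of 15 and passed the filter only through the 24 h groups, so the filter favours its place.

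Saline 4 h had the lowest mean of the 4 groups for 15 of the 21 probes (32.5% of all probes), and saline 24 h the highest for 14 (21.8% of all). Of the 15, 5 were well above background on 0 or 1 saline 4 h array and passed the filter through brighter groups, which fixes their place. Among the 16 probes measured on all 12 arrays saline 4 h was lowest for 10 (28% of all such probes) and saline 24 h highest for 9 (20.8%). The order of means from low to high was saline 4 h, LPS 4 h, LPS 24 h, saline 24 h for 7 probes of Cacna1b, Cacna1c, Cacna1h, Cacna2d1 and Cacng8, an order found for 10.9% of all probes. Of these 7, Cacna1b base 7021, Cacna1h base 6053 and Cacng8 were well above background on 0 saline 4 h arrays, so their lowest place is among those fixed. No neighbouring groups in the order overlapped for Cacna1c base 7439, Cacna1h base 7653 and both probes of Cacna2d1. The share of all probes without such overlap is not given here. For Cacna1a at base 6659 and Cacna1g at base 6951 the order was saline 4 h, LPS 4 h, saline 24 h, LPS 24 h, and the 24 h groups overlapped. Cacna1h at base 1107 had 3 pairs of overlapping neighbours. Cacna1e, Cacna1d at base 6283, Cacnb4 at bases 1039 and 7838 and Cacna1h at base 6053, which is among the 7, had 2 each. The order of these probes was not resolved. For Cacna1b at base 7021, also among the 7, the 24 h groups overlapped.

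**Figure D4:**
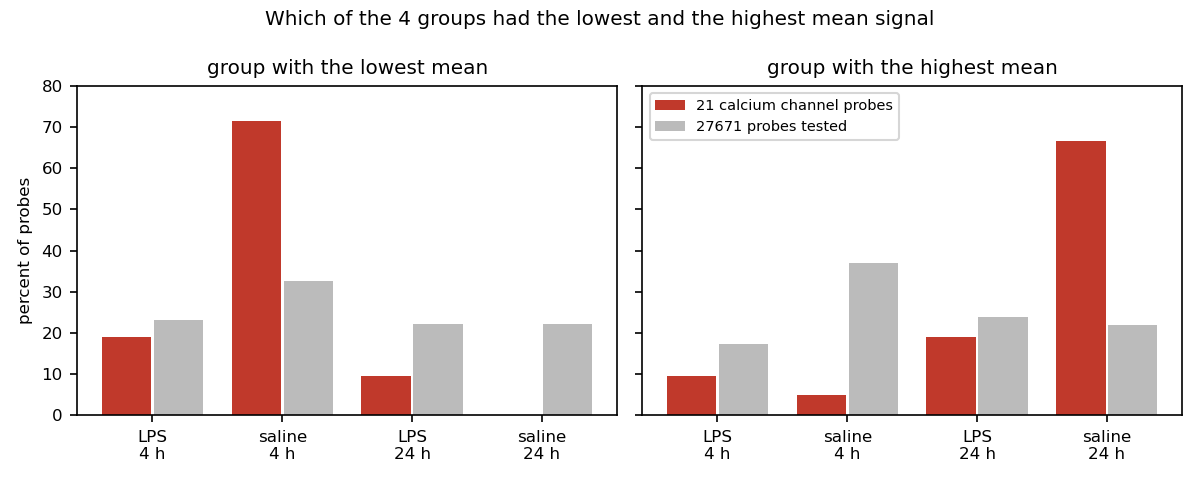
Percent of probes (y axis) whose mean was lowest (left) and highest (right) in each of the 4 groups, for the 21 calcium channel probes and for the 27671 probes tested. Saline 4 h was lowest for 15 of 21 and saline 24 h highest for 14 of 21 channel probes, against 32.5% and 21.8% of all probes.

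With each member taken at its brightest probe, the genes most like the 3 members of widest range over group means were found by Pearson correlation over the 12 arrays among 18144 genes outside the family. Because the arrays fall into 4 groups that share runs and treatments, these values are a description. Cacng8 was closest to Tmem132e (r = 0.998), Tbrg4 (r = 0.996) and Gbf1 (r = 0.995). Cacna2d1 at base 3635 was closest to Adgrb2 (r = 0.999), Rc3h2 (r = 0.999) and Ubald1 (r = 0.998). Cacna1c at base 7439 was closest to a transcript without a gene symbol (r = 0.993), Cygb (r = 0.993) and Slc39a10 (r = 0.992).

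Other subunits of the family, each taken at its brightest probe, were mixed. Of 13 measured (Cacna1f, Cacna1i and Cacng1 were not), 5 were higher and 6 lower at 4 h, and 4 were higher and 7 lower at 24 h, against 29.1% higher and 44.3% lower among all 18169 genes at 4 h, and 22.7% higher and 22% lower at 24 h. Their median difference was -0.03 at 4 h and -0.15 at 24 h, against -0.15 and 0.00 over all genes. Cacng3, a relative of Cacng8 in AMPA receptor complexes, was higher by 0.73 ± 0.05 at 4 h (adjusted p = 4.11e-07) and lower at 24 h (-0.37 ± 0.05, adjusted p = 2.23e-04), and Cacnb3 was higher by 0.57 ± 0.04 at 4 h (adjusted p = 1.01e-06) and lower at 24 h (-0.15 ± 0.04, adjusted p = 0.0162). Cacng2, also an AMPA receptor partner, was 0.26 ± 0.05 at 4 h and -0.45 ± 0.05 at 24 h (adjusted p = 6.17e-04 and 5.49e-05). Cacna1s, the pore of skeletal muscle, went the other way, at -1.58 ± 0.03 at 4 h (adjusted p = 2.31e-10) and 0.75 ± 0.03 at 24 h (adjusted p = 8.09e-08). Cacna2d3 was lower at both times (-0.29 ± 0.03 and -0.31 ± 0.03, adjusted p = 1.32e-05 and 3.3e-05).

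Proteins that bind or regulate the channels had 8 of 18 genes higher and 7 lower at 4 h, and 5 higher and 10 lower at 24 h (medians 0.07 and -0.14). Among all genes the shares were 29.1% higher and 44.3% lower at 4 h, and 22.7% higher and 22% lower at 24 h (medians -0.15 and 0.00). Camk2a, a calcium-activated kinase that acts on L-type channels, was higher by 1.01 ± 0.03 at 4 h (adjusted p = 2.59e-09) and lower at 24 h (-0.38 ± 0.03, adjusted p = 8.68e-06). Stac, an adaptor of L-type channels, was lower at 4 h (-1.62 ± 0.06, adjusted p = 9.26e-09), its relative Stac2 was higher (1.00 ± 0.05, adjusted p = 9.37e-08), and so was the channel-binding Cabp1 (0.77 ± 0.03, adjusted p = 2.35e-08). At 24 h the postsynaptic anchor Akap5 was lower (-0.51 ± 0.04, adjusted p = 1.61e-05), as was Creb1, a transcription factor that responds to calcium entry (-0.29 ± 0.03, adjusted p = 1.8e-05).

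Genes of calcium stores, pumps and exchangers had 6 of 19 higher and 9 lower at 4 h, and 3 higher and 10 lower at 24 h (medians -0.05 and -0.26), and Atp2b4 was not measured. As shares of the 19, the counts at 4 h lie near those of all genes (29.1% higher and 44.3% lower), while at 24 h the all-gene shares were 22.7% and 22%. The ryanodine receptor Ryr2, which releases calcium from stores, was higher at 4 h (0.61 ± 0.05, adjusted p = 9.16e-07) and lower at 24 h (-0.27 ± 0.05, adjusted p = 0.00106). The plasma membrane calcium pumps Atp2b2 and Atp2b3 were lower at 4 h (-0.92 ± 0.03 and -0.63 ± 0.04, adjusted p = 7.33e-09 and 2.19e-07). Itpr3, also a release channel of stores, was lower at 4 h (-0.89 ± 0.06, adjusted p = 3.67e-07). The store-operated channel Orai1 was higher at 24 h (0.67 ± 0.04, adjusted p = 9.67e-07), while the store release channel Itpr1 (-0.53 ± 0.05, adjusted p = 1.6e-05), the sodium-calcium exchanger Slc8a2 (-0.44 ± 0.05, adjusted p = 1.12e-04) and the store sensor Stim2 (-0.61 ± 0.08, adjusted p = 2.91e-04) were lower.

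Markers of cell types moved between the same groups, and their part in the channel values was not tested. The counts of each list below stand against 29.1% higher and 44.3% lower among all genes at 4 h, and 22.7% higher and 22% lower at 24 h, and with 4 to 11 genes a list they are a description. Of 8 neuronal markers, 3 were higher and 1 lower at 4 h and 0 higher and 5 lower at 24 h, and their summed level was 145 to 147 in LPS 4 h, 144 to 145 in saline 4 h, 144 to 148 in LPS 24 h and 168 to 170 in saline 24 h. Without Nefl, the brightest of them, the sum was 109.7 to 112.7 in LPS 4 h and 98.3 to 99.1 in saline 4 h. At 24 h it was then 111.6 to 114.8 in LPS and 131.9 to 134.6 in saline. The near equality at 4 h thus rests on Nefl. Of 11 hippocampal markers, 6 were higher and 1 lower at 4 h and 1 higher and 7 lower at 24 h, with summed levels of 150 to 152 in LPS 4 h, 202 to 204 in saline 4 h, 124 to 128 in LPS 24 h and 138 to 143 in saline 24 h. Bok alone held 126 to 129.6 of the sum in saline 4 h, against 53.6 to 55.8 in LPS 4 h; the other 10 markers summed to 95.3 to 97.0 in LPS 4 h and 74.3 to 75.3 in saline 4 h, so the direction at 4 h turns without Bok. In whole hippocampus, fewer cells of a type and less RNA per cell cannot be told apart.

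Interneuron markers (4 of 7 higher and 2 lower at 4 h, 1 and 2 at 24 h) summed to 27.0 to 28.0 in LPS 4 h, 24.7 to 25.3 in saline 4 h, 38.9 to 41.0 in LPS 24 h and 42.1 to 42.7 in saline 24 h. Without Sst, the brightest of them, the sum was 18.5 to 19.4 in LPS 4 h and 21.6 to 22.3 in saline 4 h, and 26.4 to 27.5 in LPS 24 h and 25.7 to 26.2 in saline 24 h, so both directions turn. Astrocyte markers (2 of 7 higher and 4 lower at 4 h, 4 and 2 at 24 h) summed to 299 to 313 in LPS 4 h, 482 to 502 in saline 4 h, 216 to 218 in LPS 24 h and 195 to 200 in saline 24 h. Without S100b, the brightest of them, the sum was 144.3 to 148.7 in LPS 4 h and 211.6 to 220 in saline 4 h. At 24 h the groups then overlapped, at 111.3 to 118.6 in LPS and 105.9 to 114.7 in saline. Microglial markers (1 of 6 higher and 4 lower at 4 h, 5 and 1 at 24 h) summed to 104 to 106.5 in LPS 4 h, 136 to 140 in saline 4 h, 76.8 to 79.4 in LPS 24 h and 44.6 to 45.4 in saline 24 h.

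Oligodendrocyte markers (1 of 5 higher and 4 lower at 4 h, 0 and 1 at 24 h) summed to 212 to 218 in LPS 4 h, 261 to 267 in saline 4 h, 149 to 156 in LPS 24 h and 160 to 162 in saline 24 h. Endothelial markers (0 of 5 higher and 5 lower at 4 h, 4 and 0 at 24 h) summed to 17.2 to 17.6 in LPS 4 h, 47.5 to 48.4 in saline 4 h, 29.0 to 31.7 in LPS 24 h and 23.2 to 24.6 in saline 24 h. The 4 choroid plexus markers (1 higher and 2 lower at 4 h, 2 and 0 at 24 h) and the 8 thalamic markers (3 higher and 5 lower at 4 h, 8 and 0 at 24 h) were measured on all 12 arrays, the choroid plexus sum being 15.3 to 16.3 in LPS 4 h, 19.8 to 20.9 in saline 4 h, 19.7 to 21.2 in LPS 24 h and 15.1 to 16.0 in saline 24 h.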

How the data were processed

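The 12 samples are one-colour Agilent arrays of Cy3-labelled hippocampal RNA. The deposited intensity values are background subtracted and not scaled across arrays; they come from Feature Extraction 10.7.3.1 per the file headers, or 9.1 per the submitters' processing notes. The authors' deposited matrix holds log2 values with medians of 6.98 to 6.99 per array, and quantile normalization of raw intensities corrected by normexp (offset 50) gave them within 5e-14 for the 40929 probes with 1 spot.

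Here log2 of the processed intensity of 43379 transcript spots was used. A total of 926 outlier spot values were left out, 0 spots were saturated, and repeated spots entered as their mean. Each array was then set to 0 at its 75th percentile. In R 4.3.3, limma 3.58.1 estimated the 4 group means from the 12 arrays, and two-sided p-values were adjusted by Benjamini-Hochberg over 27671 probes. Replicates are the arrays that the labels number 1 to 3, and their number limits the precision. Samples were grouped by title. Genes of the lists were named through RefSeq by accession (27479 probes), current symbol (5478) or synonym (679), and 7538 probes kept the files' name.

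Every kept probe of the 10 genes is reported; per list, up to 4 genes with the smallest adjusted p at each time are named, and for the 3 members of widest range, each at its brightest probe, the 3 most correlated genes. One gene that this rule names is not reported here. The members, lists and tests were chosen with earlier results of these data known. On simulated arrays with 27667 probes, the fit recovered 69 of 100 probes changed 1.5-fold and 83 of 100 changed 2-fold at 4 h, with 5 false calls, and 68 and 83 with 11 at 24 h. No other probes were changed there, while 71% of probes were called at 4 h and 41.7% at 24 h in the data. Both simulations used the same level and spread of each probe, without a background floor or run effect. Their recovery therefore does not carry over to the data of either time. As alternatives, normexp correction, quantile or median scaling, the authors' matrix, other probe filters, 1 probe per gene, 1 time alone, replicate and slide blocks, stricter thresholds, each array left out and the saline group of the other time were run.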

Additional observations from a re-analysis of the deposited data

Results flagged for a closer look

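For 16 of the 21 probes (65.9% of all probes tested) the LPS response at 24 h differed from that at 4 h by the interaction term of the fit (adjusted p under 0.05), in log2 units of 24 h minus 4 h. Cacng8 (-2.69), Cacna1e (-2.08) and Cacna1h at base 6053 (-1.12) were well above background on 0 saline 4 h arrays. The sizes of their fitted values are thus not measured. Cacna1e also passed the filter only through saline 24 h, so the filter favours its place among the 16. Cacna1c was at -1.38 (base 7439) and -1.27 (base 7740), Cacna1h at -1.10 (base 7653), Cacna1g at -1.08 (base 6951) and -0.62 (base 8005), Cacna2d1 at -1.08 (base 2885) and -0.90 (base 3635), Cacna1a at -0.66 (base 6659) and Cacna1d at -0.34 (base 7774). The Cacnb4 probes at bases 1542, 1039 and 1849 were at 0.66, 0.54 (adjusted p = 0.0448) and 0.47, and that at base 7838 at -0.81. The saline groups of the 2 times differ from each other and were scanned in different runs, so time and run cannot be told apart.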

How the results depend on the processing

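Calls of member probes kept their direction and count within 1.5 times in the deposited matrix, under the slide block and in fits on 1 time. Signal over background was lowest in saline 4 h, which limits the dim probes of Cacna1b, Cacna1e, Cacna1h and Cacng8. Normexp background correction gave 7 probes higher at 4 h (4535 of all 27671) and 2 lower at 24 h (1919). It gave 7 lower for 24 h minus 4 h (4062), and 11 higher and 3 lower for saline 24 h against saline 4 h (5562 and 15465). Cacna1b at base 7021 turned to -0.10. At 4 h, 5 probes were lower with quantile normalization (10067 of all 27671) and with median scaling (13550), where the median of all probes moved to -0.25. With no filter 8 of 27 were lower at 4 h (16352 of all 41174), and 5 were lower for saline 24 h against saline 4 h (20591). With 1 probe per gene 10 member probes entered, and 8 were higher and 0 lower at 4 h (5318 and 8088 of all 18169). At 24 h 5 were lower (4138 of all), and for 24 h minus 4 h 0 were higher (7727). For saline 24 h against saline 4 h 9 were higher (5869). Cacnb4 entered at base 7838, its brightest probe and the only one of its probes that rose at 4 h. The 3 Cacnb4 probes that fell at 4 h were thereby left out. An adjusted p under 0.01 left 5 lower at 24 h, and a threshold of 1.5-fold left 0 there, 1 higher for 24 h minus 4 h and 0 lower for the saline groups. Counts over all probes under these stricter thresholds are not given here, so these member counts are a description. Apart from the choice and the number of probes in the 1-probe setting, the cause of these shifts was not tested.

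With the saline arrays of the other time as controls, 2 probes were called higher and 15 lower at 4 h (35.5% and 35.4% of all probes tested). At 24 h 15 were called higher and 2 lower (39.9% and 40% of all). Of values called in either fit, the 14 that turned at 4 h were -0.27 and -0.70 (Cacna1a, bases 5772 and 6659), -1.57 (Cacna1b, base 7021), -0.72 and -0.38 (Cacna1c, bases 7439 and 7740), -0.55 and 0.14 (Cacna1d, bases 6283 and 7774), -0.23 (Cacna1e), -0.86 (Cacna1g, base 6951), -0.38 and -0.41 (Cacna1h, bases 6053 and 7653), -1.07 and -1.04 (Cacna2d1, bases 2885 and 3635) and -2.76 (Cacng8), and Cacna1h at base 1107, called in neither, also turned (-0.16). The 11 that turned at 24 h were 1.92 and 1.13 (Cacna1b, bases 7021 and 7667), 1.45 and 0.57 (Cacna1c), 1.26 and 1.13 (Cacna1h, bases 6053 and 7653), 1.85 and 1.63 (Cacna2d1), 0.075 and 0.59 (Cacnb4, bases 1542 and 1849) and 4.97 (Cacng8). Called in neither fit but also turned at 24 h were Cacna1e (0.66), Cacna1h at base 1107 (0.60) and Cacnb4 at bases 7838 (0.13) and 1039 (0.0038).

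Leaving out each array in turn gave 12 to 14 higher and 3 to 4 lower at 4 h, 0 higher and 7 to 9 lower at 24 h, 2 to 3 higher and 13 to 14 lower for 24 h minus 4 h, and 17 to 18 higher and 1 lower for saline 24 h against saline 4 h. Over all 27671 probes these fits gave 8300 to 8810 higher and 10277 to 11030 lower at 4 h. At 24 h they gave 5010 to 5928 higher and 4814 to 5863 lower over all probes. For 24 h minus 4 h they gave 9956 to 10428 higher and 7507 to 7826 lower over all probes. For saline 24 h against saline 4 h the ranges were 9956 to 10528 higher and 11111 to 11578 lower. With the replicate number as a replicate block, 13 probes were higher and 3 lower at 4 h (8519 and 10716 of all 27671). At 24 h 0 were higher and 7 lower (5187 and 4780 of all), and the call lost was Cacna2d1 at base 3635 (adjusted p = 0.0831). Deviations of same-numbered LPS and saline arrays correlated at -0.10, 0.13 and -0.28 at 4 h and -0.11, 0.10 and 0.06 at 24 h. These values show no pairing by number, but with 3 arrays a group they cannot exclude it. Arrays on the same slide correlated at 0.05, 0.22 and 0.39 at 4 h, and at 24 h same-numbered arrays also shared a slide.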
